A study of Gallus gallus with 54 samples.

Results

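Messenger RNA was compared between heart and spleen of indigenous Ethiopian chickens (Gallus gallus). All 18 libraries with heart in their title were set against all 18 with spleen, 36 of the 54 libraries of the series; the other 18, from breast muscle, served here only as a tissue that took no part in choosing the genes. Each tissue had 9 libraries from a breed labelled high altitude and not adapted to heat, with codes H1 to H9, and 9 from a breed labelled low altitude and adapted to heat, with codes L1 to L9. Altitude, breed and heat adaptation thus coincide in these labels and cannot be told apart. The word altitude stands for all of them below. No treatment, age, sex or batch was given in the labels used here. The labels reuse the codes in each tissue without saying that a code is one bird, so the p-values measure the spread between libraries. Libraries of whole tissue pool all its cells, so that fewer cells of a type and less RNA per cell cannot be told apart.

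The heart is a pump of striated muscle whose cardiomyocytes are packed with contractile filaments and mitochondria and contract throughout life. The spleen filters blood, removes old red cells and houses B cells, T cells and macrophages; in birds, which lack the lymph nodes of mammals, it is a major site of immune responses in the body. Red blood cells of birds keep their nucleus and carry RNA, so blood held in either organ contributes transcripts of its own. The deposited counts are listed by Ensembl gene identifier, and neither the files nor the reference table pairs these with gene names. The tissue labels could therefore not be checked against marker genes, and genes are described by identifier, level and fold.

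Heart libraries held 12.4 to 15.2 M counts (M, 1000000) and spleen libraries 11.6 to 14.3 M. The 36 libraries separated by tissue: across the 13918 genes tested, the Spearman correlation within a tissue had a median of 0.956 and a minimum of 0.878, and the correlation between a heart and a spleen had a median of 0.674 and a maximum of 0.759. In 36 of 36 libraries the best match was a library of the same tissue.

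The first comparison asked which genes separate cardiac from lymphoid tissue. Most genes did: with altitude as a covariate, 11467 of 13918 genes (82.4%) had an adjusted p under 0.05 in edgeR's quasi-likelihood test, 5387 (38.7%) higher in heart and 6080 (43.7%) higher in spleen. The median absolute log2 fold change was 1.09. A stricter rule asked for a difference beyond 4-fold (edgeR's test against a log2 fold change of 2, adjusted p under 0.05). It was passed by 3124 genes (22.4%), of which 1514 (10.9%) were higher in heart and 1610 (11.6%) higher in spleen. These 2 groups are called heart genes and spleen genes below. With this scaling (TMM) their sizes were close, and more of the heart genes had high levels and very large folds. With library totals alone, a setting chosen after seeing the data, 847 genes passed higher in heart and 3623 higher in spleen.

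**Figure D1:**
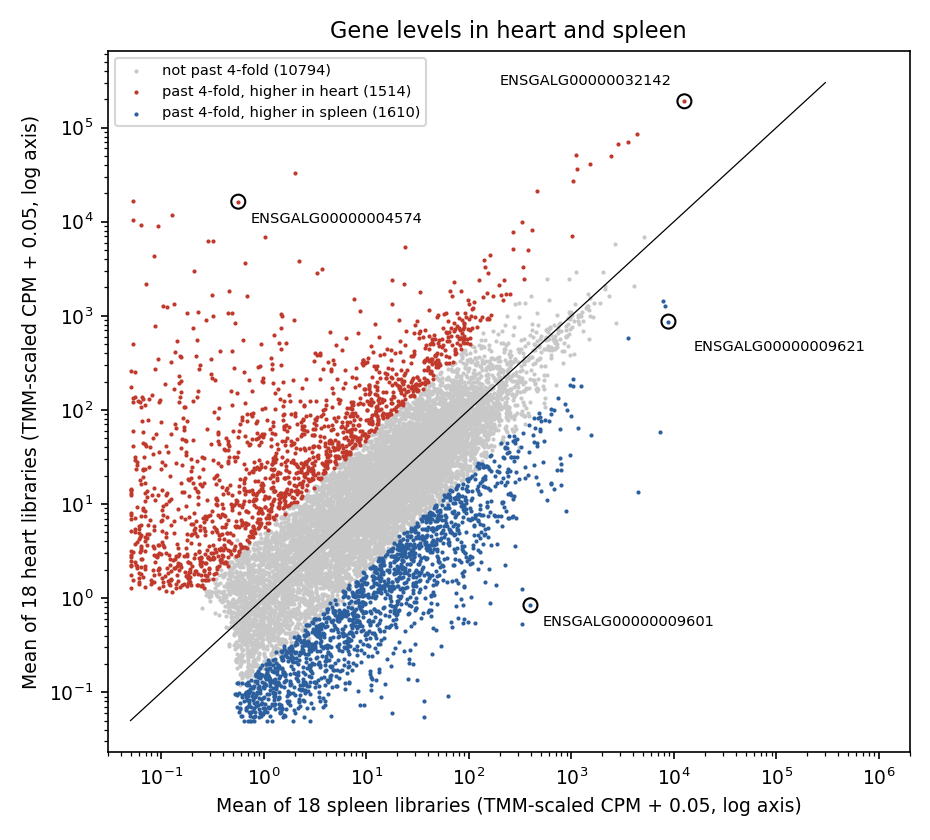
Mean level of each tested gene in 18 spleen libraries (x axis) and 18 heart libraries (y axis), in TMM-scaled CPM on log axes, with the 1514 heart genes in red, the 1610 spleen genes in blue and the line of equal level in black. On this scale, more red than blue points reach the highest levels (83 against 11 at a mean of 1000 or more), and the 4 circled genes are those described singly.

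Heart genes had a median log2 fold change of 3.91 (heart over spleen) and spleen genes one of -3.61. With TMM the tails were unequal: 358 heart genes but 100 spleen genes differed by a log2 fold change of at least 6. The numbers were 184 against 15 for at least 8, and 91 against 2 for at least 10. Where the other tissue had few or no counts, the size of a fold rests on them and on the small count that edgeR adds. In CPM, counts per 1000000 after TMM scaling, 501 heart genes reached a mean of 100 in heart and 83 reached 1000, whereas 214 spleen genes reached 100 in spleen and 11 reached 1000. The median heart gene stood at 40.1 CPM in heart and 1.36 CPM in spleen, and the median spleen gene at 12.9 CPM in spleen and 0.845 CPM in heart. CPM is not divided by transcript length, so these levels weigh long transcripts more.

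On TMM-scaled CPM, the groups of libraries did not overlap at all for 4009 of the genes tested (28.8%). For 1991 (14.3%) every heart lay above every spleen, and for 2018 (14.5%) every spleen lay above every heart. Among the heart genes 1307 of 1514 (86.3%) had no overlap, and among the spleen genes 1181 of 1610 (73.4%), which is a description only, since the same libraries chose these genes. The share past the 4-fold rule, here with TMM scaling, differed between bins of mean level. With the genes in 4 bins of equal size by mean level, the lowest bin had 13.9% heart genes and 22.1% spleen genes. In the highest bin 10.1% were heart genes and 4.48% spleen genes. A gene that is low in either tissue has a lower mean for that reason. Part of this difference may thus be built into the bins, and how much was not tested.

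Genes well detected in every library of 1 tissue were seldom wholly absent from the other. Of the 9831 genes with at least 10 counts in each of the 18 hearts, 10 had no count in any spleen and 32 had at most 1 count in every spleen. Of the 11364 genes with at least 10 counts in each of the 18 spleens, 1 had no count in any heart and 12 had at most 1 in every heart. With no minimum, 734 of the 21345 identifiers with a count had counts in heart and none in spleen, and 1334 the reverse. A mean under 1 CPM (TMM-scaled) in the other tissue was reached by 685 heart genes (45.2%) and 843 spleen genes (52.4%). The share over all genes tested was not taken, and a gene could pass the expression filter through 1 tissue alone. These numbers depend on the scaling: without TMM, the median heart gene stood at 2.12 CPM in spleen and the median spleen gene at 0.574 in heart.

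At the other end, 2016 genes (14.5%) had a 95% interval of the fold change that lay wholly within 1.5-fold in either direction. Of these, 579 still had an adjusted p under 0.05. In all, 2451 genes were not called, and a gene not called is not thereby shown to be equal in both tissues. These counts hold for TMM scaling. With library totals alone, the median log2 fold change of all genes was -1.34, itself beyond 1.5-fold, and the count within 1.5-fold was not taken.

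Across all genes tested, the log2 fold changes of heart over spleen ran from -11.3 to 20.48. The size of such a fold is uncertain where the lower tissue has few or no counts. Among the heart genes with counts in all 18 spleens and at least 50 CPM in heart, ENSGALG00000004574 had the largest fold. Its counts in hearts ran from 59043 in L6 to 388163 in H7, with a median of 108685, and in spleens from 2 in H9 to 39 in L9, with a median of 5.5. Every heart thus lay far above every spleen, and the hearts varied widely among themselves. In plain CPM, that is counts scaled to a library total of 1000000, the means were 10564 ± 6730 (SD, n = 18) in heart and 0.808 ± 0.735 in spleen. Heart over spleen was 14.96 on the log2 scale (SE 0.50; edgeR adjusted p = 9.43e-26), and it was 15.36 at high and 14.61 at low altitude. In breast muscle, which is striated like the heart, the counts were 0 to 64 with a median of 2.0, again far below every heart.

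ENSGALG00000032142 was the most abundant of the heart genes and held the first rank by mean CPM in both heart and spleen. It took 58492 CPM in the lowest heart, H4, 122565 in the median heart and 167650 in the highest, L5. In spleens it ran from 9427 CPM in H4 to 28082 in L4, with a median of 18361. The tissues did not overlap, and the code H4 was lowest in both. The means were 117354 ± 27835 CPM in heart and 19300 ± 5215 in spleen (SD, n = 18). Heart over spleen was 3.90 on the log2 scale (SE 0.21; edgeR adjusted p = 9.11e-20). This value depends on the scaling, since the plain CPM means differed by a ratio of 6.08. In breast muscle the gene stood at 14356 to 42508 CPM, near the spleens and below every heart.

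Of the spleen genes with counts in all 18 hearts and at least 50 CPM in spleen, ENSGALG00000009601 had the largest fold. Its counts in spleens ran from 3668 in H7 to 14677 in L9, with a median of 8019.5, and in hearts from 3 to 13, with a median of 6.5. The spread among spleens was small beside the gap between the tissues. The mean was 622 ± 235 CPM in spleen and 0.504 ± 0.210 in heart (SD, n = 18), and heart over spleen was -8.99 on the log2 scale (SE 0.22; edgeR adjusted p = 3.68e-30). Breast muscle had 0 to 12 counts with a median of 1.0, as low as heart.

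ENSGALG00000009621 was the spleen gene with the highest level and ranked second by mean CPM in spleen. Spleens held 9157 to 18031 CPM with a median of 13347, and hearts 178 to 1226 CPM with a median of 528. Hearts thus expressed the gene at an appreciable level, and it ranked 139 there. The means were 13554 ± 2642 CPM in spleen and 588 ± 269 in heart (SD, n = 18), and heart over spleen was -3.34 on the log2 scale (SE 0.16; edgeR adjusted p = 6.41e-21). In breast muscle the range was 88.3 to 314 CPM, with the median of 223 below that of heart.

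**Figure D2:**
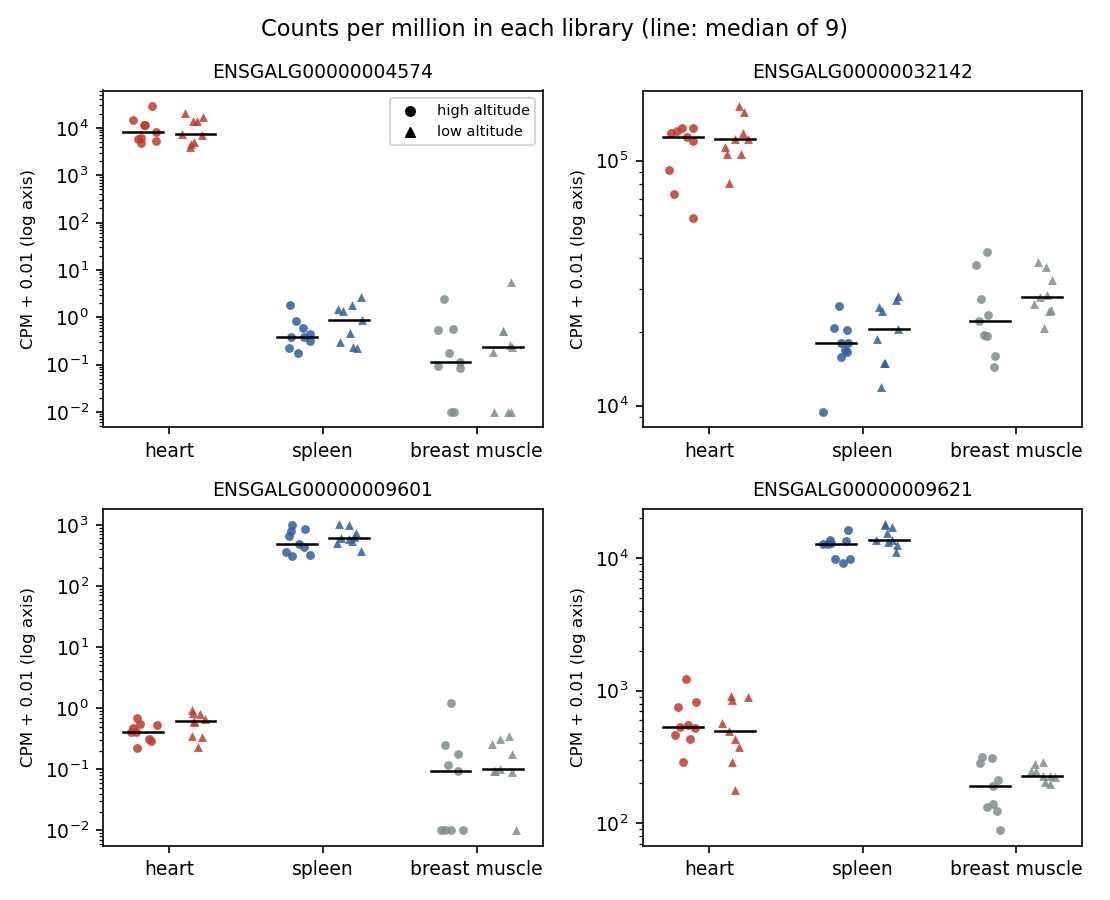
CPM of the library total (plus 0.01, log axis) of the 4 genes in every library of heart (red), spleen (blue) and breast muscle (grey), with circles for high altitude, triangles for low altitude and a line at the median of 9. For each gene the 18 hearts and 18 spleens are separate, at both altitudes, and breast muscle lies nearer the lower of the other tissues than the higher.

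The breast muscle libraries took no part in calling the genes. With all 54 libraries scaled together, 665 of the 1514 heart genes (43.9%) stood in breast muscle at a mean no more than 2-fold below heart (on CPM + 0.1), and 101 of them stood more than 4-fold above heart. Another 633 (41.8%) stood at least 4-fold below heart, and 216 (14.3%) lay between these limits. The heart genes thus ranged from higher in breast muscle than in heart to low in it. Of the 1610 spleen genes, 74 (4.6%) stood no more than 2-fold below spleen in breast muscle and 1460 (90.7%) at least 4-fold below. Shares over all genes tested were not taken, so these numbers describe the 2 groups and are not set against other genes. The numbers also rest on this scaling of the 54 libraries, and they were not taken with library totals alone.

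The next question was how the counts are distributed within each tissue. Heart counts were concentrated in few genes: the 20 most abundant genes of a library held 32.2% to 61.5% of the counts in hearts and 11.5% to 17.4% in spleens. The means were 48.5% ± 7.26 and 14.5% ± 1.63 (SD, n = 18), and the groups did not overlap (two-sided permutation test with 100000 resamples, p = 2e-05, the smallest they can give; adjusted over 8 measures 2.29e-05). Reaching 50% of the counts took 8 to 138 genes in hearts, with a median of 18, and 391 to 796 genes in spleens, with a median of 563.5. The single most abundant gene held 7.15% to 16.8% of the counts in hearts and 1.496% to 2.81% in spleens. Of the 20 most abundant genes by mean, 5 were the same in both tissues.

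Spleens in turn had more genes detected. With every library thinned to 11552919 counts, 14725 to 16201 genes had at least 1 count in hearts and 16439 to 17490 in spleens, again without overlap. The difference in means was -1207 genes (heart minus spleen; permutation p = 2e-05, adjusted 2.29e-05). Without thinning the means were 15849 ± 359 and 16957 ± 306 (SD, n = 18), although hearts had the higher totals, 14.0 ± 0.943 M against 13.2 ± 0.873 M (permutation p = 0.00888, adjusted 0.00888). Within each altitude, the measures of concentration and detection kept their direction and gave 4.11e-05, the smallest p that an exact permutation test of 9 against 9 allows. Thinning made the totals equal, but not the counts left for genes outside the 20 most abundant, which held means of 48.5% in hearts and 14.5% in spleens. The part of this concentration in the lower detection of hearts was not tested.

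**Figure D3:**
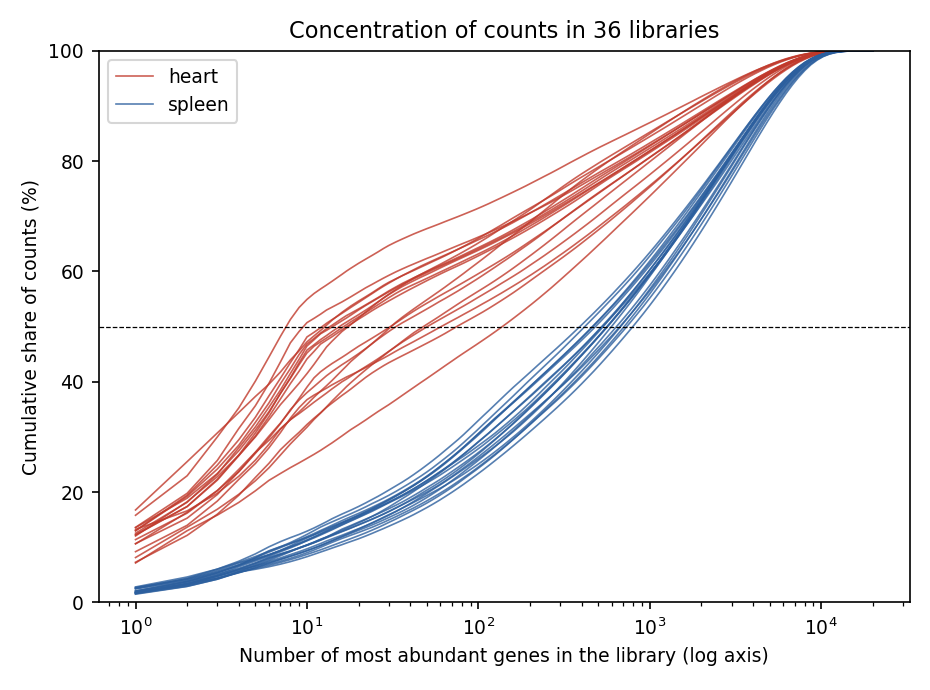
Cumulative share of counts (y axis, percent) held by the most abundant genes of each library (x axis, number of genes on a log axis), with 18 heart libraries in red and 18 spleen libraries in blue. The hearts reach 50% (dashed line) with 8 to 138 genes and the spleens with 391 to 796, and the hearts fan out more.

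This concentration bears on the fold changes. TMM, the scaling used, set factors of 0.457 to 0.872 for hearts and 1.37 to 1.84 for spleens. With library totals alone, the median log2 fold change of all genes moved from -0.11 to -1.34, and the genes past the threshold split into 2278 higher in heart and 10026 higher in spleen. The even split given above is thus one relative to the bulk of genes, and relative to total counts most differences lay on the side of spleen. The order of the median folds turned as well, since the same 1514 heart genes then had a median log2 fold change of 2.65 and the same 1610 spleen genes one of -4.80. A log2 fold change of at least 6 was then reached by 231 heart genes and 338 spleen genes, one of at least 8 by 124 and 40, and one of at least 10 by 59 and 6. In plain CPM, 398 heart genes reached a mean of 100 in heart and 58 reached 1000, against 318 and 26 spleen genes in spleen. The 4 genes described singly kept their direction and call, with log2 fold changes of 13.69, 2.61, -10.25 and -4.52 in the order described.

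The tissue difference was then examined within each altitude. All 36 libraries were fitted as 4 groups, and the 9 hearts were set against the 9 spleens of each altitude. In this fit 10486 genes (75.3%) passed the threshold at high altitude and 10528 (75.6%) at low altitude, and 2808 (20.2%) and 2911 (20.9%) passed the 4-fold rule. For a check on samples not used in the choice, each altitude was also fitted alone. The 4-fold rule was then passed by 2428 of 12829 genes at high altitude and 2534 of 12879 at low altitude. Of the 1260 heart genes chosen at high altitude, 1227 could be tested at low altitude, where 1226 had the same sign and 1124 (91.6%) again passed the 4-fold rule, which 9.84% of all genes tested there passed in that direction. Of the 1168 spleen genes chosen at high altitude, 1140 could be tested, of which 1140 had the same sign and 1037 (91.0%) passed again, against 9.84% of all genes.

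In the opposite direction the figures were alike. Of 1267 heart genes chosen at low altitude, 1233 could be tested at high altitude and 1124 (91.2%) passed the 4-fold rule there, against 9.82% of all genes tested. Of 1267 spleen genes, 1205 could be tested and 1037 (86.1%) passed, against 9.1% of all genes. Across the 12621 genes tested at both altitudes, which are not independent replicates, the fold changes had a Pearson r of 0.985 and differed by a median of 0.19 on the log2 scale. Opposite signs were found for 735 genes, none of which (0) passed the threshold at both altitudes.

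**Figure D4:**
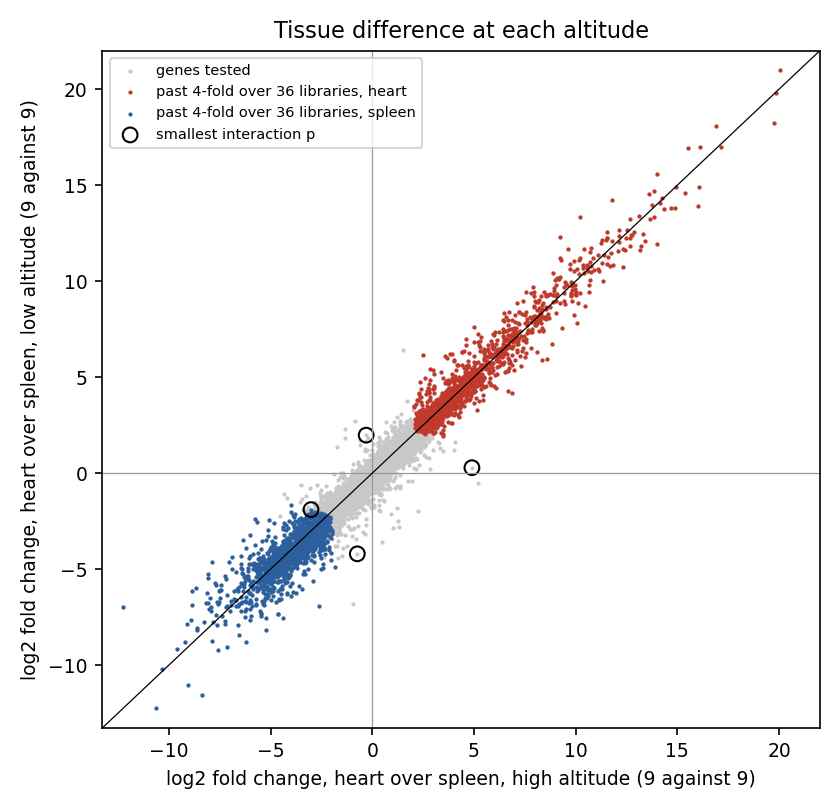
Log2 fold change of heart over spleen at high altitude (x axis) and at low altitude (y axis) for the 13918 genes tested, with heart genes in red, spleen genes in blue, the line of equal difference in black and 4 circles at the genes with the smallest interaction p. The heart and spleen genes lie along the line, and the 4 circled genes lie off it without passing the interaction test.

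The difference between the altitudes was tested itself as the interaction of tissue and altitude. By edgeR 0 of 13918 genes passed (0.0%; smallest adjusted p 1.0); 497 (3.57%) reached an unadjusted p below 0.05, and 695.9 would do so with uniform p-values. DESeq2 and limma-voom also called 0, with 705 and 659 genes at an unadjusted p under 0.05. DESeq2 was run on 21345 identifiers and limma-voom on the 13918 genes, so that 695.9 is no expectation for the 705. In simulated data, the edgeR interaction test called 26.0% of 50 genes given a log2 change of 1. It called 84.0% of 50 genes given one of 2. Small differences between the altitudes could thus be missed, and a gene not called is not shown to be equal at both. The 2 genes with the smallest p in each direction, 4 in all, had at most 782 counts in any heart or spleen. Single libraries stood out in several of their groups.

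Of these, ENSGALG00000031780 had a log2 fold change of heart over spleen of -0.30 (SE 0.37) at high and 1.98 (SE 0.39) at low altitude, an interaction of 2.28 (SE 0.54; edgeR adjusted p = 1.0). Its counts were alike in the hearts, 35 to 159 at high and 34 to 153 at low altitude, while spleens held 66 to 722 with a median of 152 at high and 28 to 151 with a median of 51 at low altitude. ENSGALG00000011008, a spleen gene past the 4-fold rule, had log2 fold changes of -3.02 (SE 0.22) at high and -1.90 (SE 0.21) at low altitude, with an interaction of 1.11 (SE 0.30; edgeR adjusted p = 1.0). Hearts had 5 to 17 counts of it at high and 4 to 21 at low altitude.

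In the other direction, ENSGALG00000033992 had log2 fold changes of 4.90 (SE 0.87) at high and 0.28 (SE 0.76) at low altitude, and an interaction of -4.62 (SE 1.13; edgeR adjusted p = 1.0). High altitude hearts ranged from 2 to 210 counts, and 1 spleen, L3, held 208 where the other low altitude spleens held at most 12. Without the code L3 the interaction was -2.41, and leaving out each other code gave -5.21 to -4.30. ENSGALG00000036224 had -0.74 (SE 0.57) at high and -4.21 (SE 0.68) at low altitude, and an interaction of -3.47 (SE 0.87; edgeR adjusted p = 1.0). Here spleen L2 held 782 counts and heart H8 held 105, far above the other libraries of their groups. Without the code L2 the interaction was -2.42 and without H8 it was -2.49, and leaving out each other code gave -3.79 to -3.37. It was -2.06 with limma-voom.

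The heart and spleen genes chosen at one altitude were also followed through the libraries of the other, which the choice did not use, keeping genes with a mean of at least 50 CPM. The 542 heart genes chosen at high altitude held 67.2% ± 4.44 of the counts in low altitude hearts (SD, n = 9; 59.7% to 74.9%) and 7.63% ± 1.83 in low altitude spleens (4.71% to 10.6%). The 450 spleen genes held 15.6% ± 0.834 in low altitude spleens (14.0% to 17.2%) and 0.510% ± 0.181 in low altitude hearts (0.288% to 0.838%). The lists were chosen with TMM scaling, on which the numbers of genes past the 4-fold rule depend. On these lists, spleen genes took a smaller share of their own tissue than heart genes did. Much of that gap lay in few genes: without the 20 most abundant members of each list, heart genes held 13.4% to 24.1% in low altitude hearts and spleen genes 7.79% to 8.86% in low altitude spleens.

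High altitude libraries showed the same with genes chosen at low altitude. The 547 heart genes took 63.9% ± 8.58 of all counts of the high altitude hearts (SD, n = 9). The hearts were uneven: H4, H1, H7 and H8 held 50.5%, 52.4%, 59.0% and 59.5%, and the other 5 held 69.6% to 72.0%. The 476 spleen genes held 16.2% ± 0.865 in high altitude spleens and 0.337% to 1.26% in high altitude hearts, with the highest shares in H1 (1.26%), H8 (0.949%), H4 (0.896%) and H7 (0.760%), the same 4 hearts. Shares of 1 library sum to a fixed total, so a lower share of one group raises the others, and the part that blood, depth or the piece of tissue taken has in these differences was not tested. Without their 20 most abundant members, the heart genes held 14.6% to 20.8% in high altitude hearts and 2.30% to 3.08% in high altitude spleens, and the spleen genes held 8.33% to 11.1% in high altitude spleens and 0.206% to 0.802% in high altitude hearts.

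**Figure D5:**
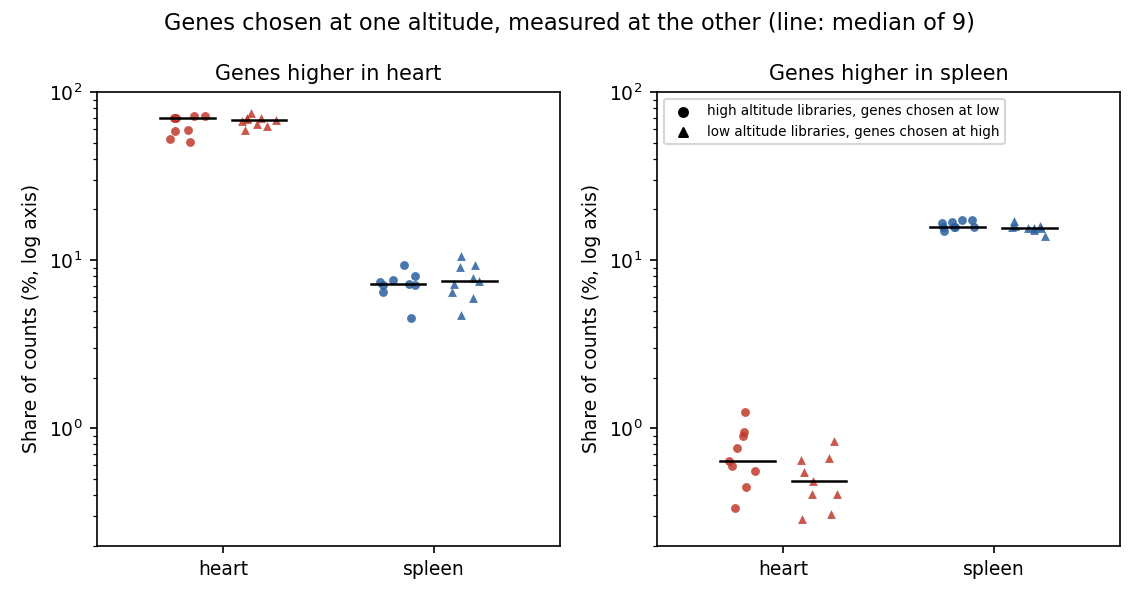
Share of counts (percent, log axis) held by heart genes (left) and spleen genes (right) in each heart and spleen library, with circles for high altitude libraries (genes chosen at low altitude), triangles for low altitude libraries (genes chosen at high altitude) and a line at the median of 9. The heart genes hold 50.5% to 74.9% of heart counts and the spleen genes 14.0% to 17.4% of spleen counts, and the tissues do not overlap in either panel.

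In breast muscle, the 486 heart genes of at least 50 CPM that were chosen at both altitudes held 27.8% ± 3.60 of the counts (SD, n = 18; 19.6% to 32.6%). The 405 spleen genes chosen at both held 0.247% ± 0.0842 there (0.131% to 0.524%), below their 0.523% ± 0.187 in heart (n = 18). These hearts also took part in choosing the genes. The direction depended on the list. The 450 spleen genes chosen at high altitude held 0.248% in low altitude breast muscles and 0.510% in low altitude hearts. The 476 chosen at low altitude went the other way, with 3.06% in high altitude breast muscles and 0.715% in high altitude hearts.

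Finally, the spread of each gene's log2 CPM over the 36 libraries was divided among its sources, as a description. Tissue took a median of 56.2% of the sum of squares per gene and over 50% for 7702 genes (55.3%), and over 90% for 1520 genes (10.9%). Altitude took a median of 0.687% and the interaction 0.380%, with 1 degree of freedom each, as for tissue. The code within altitude took 24.5% and the remainder 13.7%, each with 16 degrees of freedom, so that these shares cannot be ranked against those of altitude or the interaction.

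Log2 CPM varied more among hearts than among spleens. The SD of log2 CPM among libraries of one tissue and altitude had a median of 0.54 over genes in heart and 0.41 in spleen, and it was larger in heart for 10579 of 13918 genes (76.0%). At high altitude alone this held for 66.6% of genes and at low altitude for 75.2%. This SD includes counting noise, and with library totals alone the median log2 fold change of heart over spleen was -1.34. The part of counting noise in the difference was not tested. edgeR's biological coefficient of variation, which sets counting noise apart, was also larger in heart. Its common value was 41.5% in heart and 36.8% in spleen, and its median over genes was 37.0% and 29.7%. The heart genes had a median SD of 0.64 in heart, and the spleen genes one of 0.60 in spleen, both above the median of all genes in that tissue. Each group was also uneven in the tissue where it was low, with 0.52 for heart genes in spleen and 0.70 for spleen genes in heart, where their counts were few.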

How the data were processed

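Messenger RNA of heart, spleen and breast muscle was sequenced from libraries made with a stranded kit, per the labels' protocols. The deposited values are whole-number counts per Ensembl gene identifier, 1 table of 24881 identifiers per library, as the authors made them. The build galGal4 and the tools HISAT2 2.0.4, featureCounts, FastQC, Cuffdiff and Cufflinks are named in the submitters' processing notes without their roles. How strand was treated in counting is not given in the sources named, so genes that overlap, antisense genes and near-identical copies may share reads. Of the identifiers, 0 matched the 25635 genes of the reference table, so lists of cardiac, lymphoid and blood genes could not be used. No coordinates are given.

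Of 21345 identifiers with a count in the 36 libraries, 13918 passed edgeR's expression filter. Counts were scaled by TMM and fitted with edgeR 4.0.16 (R 4.3.3) by a robust quasi-likelihood model with tissue and altitude; the fit within altitudes and the interaction used the 4 groups. P-values were adjusted by Benjamini and Hochberg over all genes tested. The 4-fold rule used glmTreat at a log2 threshold of 2. Standard errors are the log2 fold change over the root of the F statistic. The prior count was 2 for log2 CPM, and edgeR's default was kept for the fold changes. limma 3.58.1 and DESeq2 1.42.0 served as alternatives, with other scalings, filters and left-out codes. Library measures were set against each other in two-sided permutation tests. Scripts were tested on simulated data.

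Genes were named by rule: per direction, the largest fold among genes past the 4-fold rule with at least 50 CPM in the higher tissue and a count in every library of the other, the highest level among genes past the 4-fold rule, and for the interaction the 2 smallest p. The comparison, rules and lists were chosen with earlier results of these data known. No pair of libraries had identical counts (0). Depths of 11.6 to 15.2 M counts (M, 1000000) limit precision for genes with few counts.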

Additional observations from a re-analysis of the deposited data

Results flagged for a closer look

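In groups of 9 libraries, a library was singled out where its gap to the nearest other library was large for the range of its group, by Dixon's test at the 95% level. Of 64 sets of values tested, 5 held such a library, where chance gives about 1 in 20, or 3.2, for independent sets. These sets reused the same libraries, and the interaction genes were chosen from these data, so 3.2 is no exact expectation for them. The heart of H3 had 12353 genes with at least 5 counts, the lowest of the high altitude hearts, with the next at 12985. The spleen of H9 had 14726 such genes, the highest of the high altitude spleens, with the next at 14300.

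The other 3 were single genes of the interaction. The log2 CPM of ENSGALG00000011008 was -0.354 in the heart of L4, below the next low altitude heart at 0.465. ENSGALG00000033992 reached 3.34 in the spleen of L3, where the next low altitude spleen stood at -0.411. ENSGALG00000036224 reached 5.32 in the spleen of L2, where the next stood at 2.85.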

How the results depend on the processing

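Counts of genes in both directions together moved by over 1.5 times with fewer genes tested or another fold threshold. A filter of at least 10 CPM in at least 18 libraries left 8140 genes, of which 6857 passed the threshold and 1483 the 4-fold rule; a 2-fold rule was passed by 6153 genes and an 8-fold rule by 1743. Leaving out each code in turn gave 11396 to 11549 genes past the threshold and 3112 to 3215 past the 4-fold rule. Library totals alone, an alternative chosen after seeing the data, called 12304 and 4470 genes, with 18.5% and 18.9% of them higher in heart against 47.0% and 48.5% with TMM; the counts by direction thus moved by over 1.5 times (heart 5387 to 2278 and 1514 to 847, spleen 6080 to 10026 and 1610 to 3623). Total counts differed by 0.675 M within high altitude, which did not pass an exact permutation test (p = 0.132). The interaction called 0 genes in each of 23 alternatives, and the smallest adjusted p of its 4 named genes over them was 0.202 (for 3 of them). The 4 genes named for tissue kept direction and call in the 27 alternatives that gave a value for each, and ENSGALG00000009601 also without the most abundant genes, a setting that removes the other 3. Few counts limit the low-level genes.

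The codes are shared between tissues. Heart and spleen libraries of one code deviated together from their group means with r of 0.0687 to 0.479, above 0.1 in 17 of 18 codes. The highest r of a heart with a spleen of another code of its altitude ran from 0.0961 (H3) to 0.325 (L7). An r above 0.1 thus does not by itself mark a shared code. In 15 of 18 codes each the heart matched its own spleen best and the spleen its own heart, a hint from the data and not from the design. With the code as replicate block, 11804 genes passed the threshold (11398 shared with the fit without it) and 3247 the 4-fold rule (3093 shared), and the interaction called 0, with -2.16 for ENSGALG00000036224.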

Other observations

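In breast muscle, the share of a list differed with the altitude at which its genes were chosen, a pattern noticed after the values were seen. It was found for spleen genes and for heart genes. The 476 spleen genes of at least 50 CPM chosen at low altitude took 3.06% ± 1.64 of all counts of the high altitude breast muscles (SD, n = 9; 0.920% to 5.22%) and 4.48% ± 0.714 of the low altitude ones (3.22% to 5.53%). The 450 chosen at high altitude took 0.305% ± 0.136 (0.148% to 0.613%) and 0.248% ± 0.0174 (0.234% to 0.291%). The shares of the 2 lists thus did not overlap in breast muscle of either altitude, and the difference went with the list. The 405 genes on both lists held 0.247% ± 0.0842 over the 18 breast muscles. Of the 476 genes, 1 alone had a mean share of 1.51% in the high altitude breast muscles, and without it the list held 0.620% to 2.77%. The 547 heart genes chosen at low altitude took 37.98% ± 7.54 of counts in high altitude breast muscles (21.81% to 46.49%) and 41.45% ± 3.46 in low altitude ones. The 542 chosen at high altitude took 25.95% ± 3.27 (20.65% to 30.58%) and 30.47% ± 1.87. At high altitude these ranges overlapped. Of the 547, 1 alone averaged 11.4% in high altitude breast muscles, and without it the list held 20.7% to 31.8%.

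A few counts of ENSGALG00000004574 were found in the other tissues. This gene had the largest fold among heart genes with counts in all 18 spleens and at least 50 CPM in heart. Its highest count in spleens, 39, and its highest in breast muscle, 64, both belonged to libraries of the code L9, and the next highest were 25 in the spleen of H2 and 22 in the breast muscle of H8. Where these counts come from was not tested.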
